A study of Saccharomyces cerevisiae with 2 samples.

Results

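The genes described here encode enzymes of amino acid biosynthesis in the budding yeast S. cerevisiae, together with GCN4, the gene of their common transcriptional activator. The 49 members were listed by systematic name for arginine (7 genes), leucine (3), isoleucine and valine (7), lysine (7), aromatic amino acids (8), threonine (5), serine (4), asparagine (2), glutamate and glutamine (3) and proline (2), and all 49 were found among the 7127 features of the count table. The rule names pathways and no measured value. Total RNA without rRNA depletion was sequenced from 1 wild type culture and 1 culture of the deletion strain npl3Δ, both grown at 25 °C, with 200 ng of RNA for each library. Npl3 is an mRNA-binding protein that the study examined for a role in the quality control of rRNA. The labels give the 2 genotypes only as wild type and npl3Δ, and the study describes its strains as mostly in the BY4741 background. Which of its strains were sequenced is not given in the sources used here. According to the methods, wild type cells of the study carry auxotrophic mutations of URA3, LEU2 and HIS3.

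Budding yeast can make every amino acid from glucose, ammonium and sulfate. Shortage of any amino acid activates the kinase Gcn2, and the GCN4 mRNA is then translated more efficiently because ribosomes pass the small open reading frames in its leader. Gcn4 binds the sequence TGACTCA before many biosynthetic genes, a response called general amino acid control. Single pathways have regulators of their own, such as Leu3 for leucine and branched-chain genes, Lys14 for lysine genes and the Arg80-Arg81-Mcm1 complex for arginine genes. Glutamate and glutamine, from which other amino acids receive their nitrogen, are made by Gdh1, Glt1 and Gln1, whose genes are also controlled by the quality of the nitrogen source through GATA factors.

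Promoter sequences are shown for members past 2-fold and for ASN2, the second asparagine synthetase gene, because Gcn4 acts through the core TGACTC. Within the promoter window of 250 bases before to 50 after the start codon, 1 of the 6 members with counts at least 2-fold lower in npl3Δ, ASN1, holds the core on either strand. ASN2 and LYS1, the member with the highest ratio, hold it as well. The matches of ARG1 (345 and 274 bases before the start codon), CPA1 (484 and 295), GLN1 (268) and GDH1 (492) lie farther upstream and are reached only by a window of 500 bases, which was chosen after the data were seen. The following stretches of 30 bases were read from the RefSeq genome R64, the same assembly as sacCer3, in the direction of the gene, with the match in capitals. GAGTCA is the same core on the opposite strand.
ARG1, chrXV:218854-218883: gtgattttttagTGACTCatgtcgcatttg
ARG1, chrXV:218925-218954: tgccgtatggaaGAGTCAtttaaaggcagg
CPA1, chrXV:882403-882432: tggaagggtgttTGACTCatcatcgcatcg
CPA1, chrXV:882592-882621: cttttcttttctTGACTCgtcgtttctttt
ASN1, chrXVI:822381-822410: tcatgtaacattTGACTCattctgtaaact
GLN1, chrXVI:641928-641957: atgaattaaagaTGACTCcgacgcatattg
GDH1, minus strand, chrXV:1043513-1043542: aggttccaTGACTCcatggaaacgggcctg
ASN2, chrVII:739735-739764: ttttcttagcatTGACTCatggcaagattt
LYS1, minus strand, chrIX:420968-420997: tactaagtcgatGAGTCAaaaaagactctt
LYS1, minus strand, chrIX:420853-420882: ttcagcgacaaaGAGTCAtaaagtcatcct

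Features outside the rDNA held 4799318 counts in wild type and 6674796 in npl3Δ, which is 1.14% and 1.66% of all counts in the table, since rRNA was not removed. For NPL3 itself there were 1345 wild type and 3 npl3Δ counts. The 2 libraries also differed in genes of mating type, with 774 and 8 counts for the pheromone receptor gene STE2 and 6 and 1326 for STE3. An effect of the deletion therefore cannot be told apart from other differences between the strains. For each feature, log2 of the npl3Δ to wild type counts was formed with a pseudocount of 0.5, and the median over the 6118 features whose 2 counts summed to at least 10 was subtracted, so that 0 stands for the median feature, whose count as deposited was 1.40-fold higher in npl3Δ. Intervals are 95% exact binomial (Clopper-Pearson) intervals, which cover counting error only. With 1 library per genotype there is no replicate check and no test. In bulk cultures, fewer cells with an RNA and less of it per cell cannot be told apart.

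The 49 genes together had 27418 wild type and 30654 npl3Δ counts. Their share was 0.571% (95% interval 0.565 to 0.578%) and 0.459% (0.454 to 0.464%) of the counts outside the rDNA in these libraries. ATG26, a gene of sterol metabolism, alone held 23.5% and 34.5% of the same counts, so that the shares of all other features move with it. ARG3, the ornithine carbamoyltransferase gene, had only 3 and 2 counts and is left out of the following numbers. Among the 48 other members the median log2 ratio was -0.26, with 12 above and 36 below the median feature. The interval lay above 0 for 6 of them, below 0 for 28, and held 0 for 14. Of all 6118 features tested, it lay above 0 for 1345 and below 0 for 1510. The members had a median of 1020 counts in both libraries together, against 294 for all features tested. Higher counts give narrower intervals, which leave out 0 more readily. With the sum of counts outside the rDNA but without ATG26 and BDF1 as library size, which moves all features up by 0.25, the median of the members was -0.01, with 22 above 0 and 26 below.

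Most members, 40 of the 48, had ratios within 2-fold of the median feature. With a limit of 2-fold, 6 of the 48 members were lower in npl3Δ, where 4.56% of all features tested were lower, and 2 were higher, where 7.78% of all features were higher. Among the 47 members with at least 100 counts, 5 were lower and 2 were higher, and the corresponding shares of all such features were 2.99% and 4.09%. With a limit of 1.5-fold, 12 members were lower and 2 higher, beside 12.3% and 15.9% of all features. The count of 6 lower members depends on the scaling. With the library size without ATG26 and BDF1, 2 members were lower, GLN1 and ASN1, beside 2.7% of all features, and 2 were higher, beside 12%. The shares of all features include chromosome I, on which no member lies. Many genes of this chromosome had high ratios, such as TFC3 at 1.33, though not all, with ADE1 at -1.20.

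**Figure D1:**
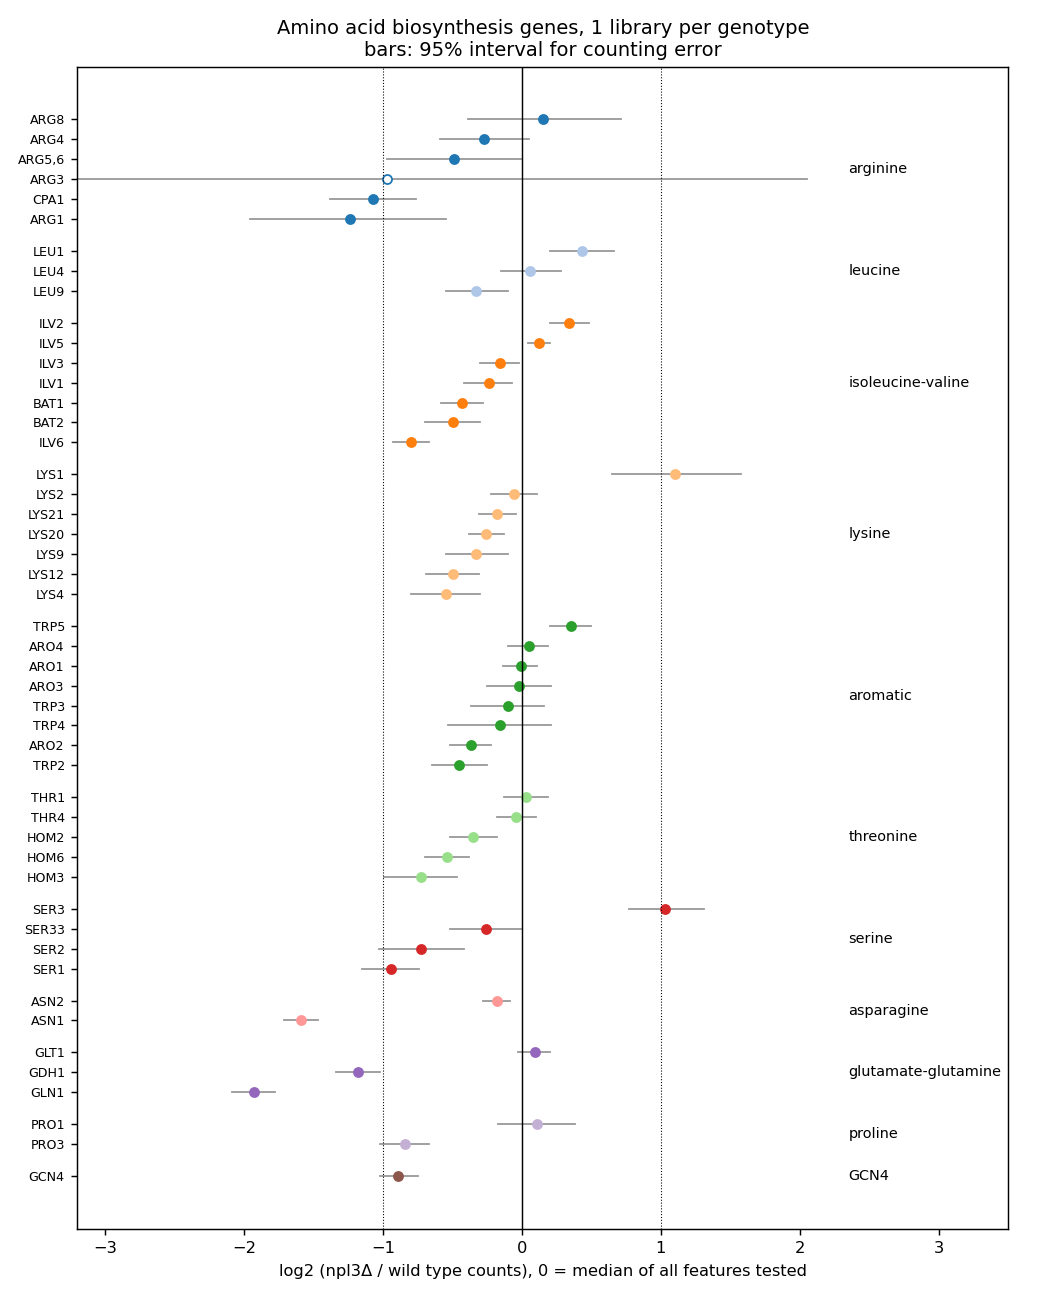
Log2 ratio of npl3Δ to wild type counts (horizontal axis) for 48 of the 49 genes, grouped by pathway, with 95% intervals for counting error and dotted lines at 2-fold; 0 is the median of all features tested. The open symbol is ARG3, with 5 counts in all and an interval that runs past the left edge, and GLN1 at -1.93 and LYS1 at 1.10 are the lowest and highest of the others.

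Well expressed features had lower ratios in general. When the features were divided by count into 10 groups of like size, the median log2 ratio was -0.31 in the group with the most counts, against 0.43 in that with the fewest. Of the members, 35 lay in the top 3 groups. When each gene was instead compared with the 500 features nearest to it in count, the median of the members was again -0.26, with 16 above 0 and 32 below.

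**Figure D2:**
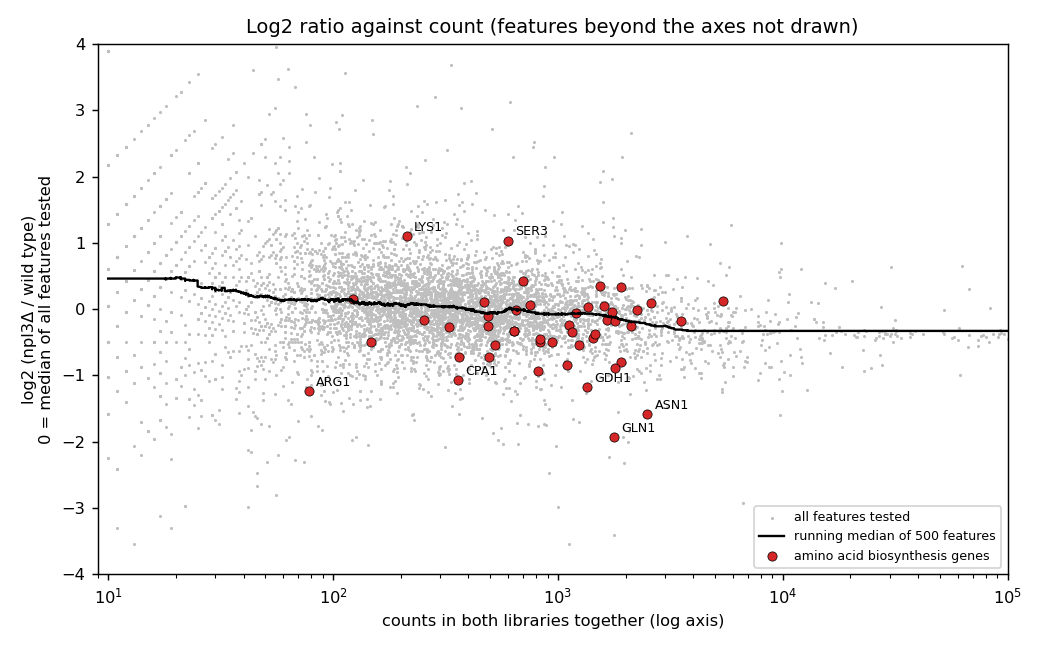
Log2 ratio of npl3Δ to wild type (vertical axis, 0 is the median feature) against the counts in both libraries together (logarithmic horizontal axis) for all features tested (grey) and 47 of the 48 members with at least 10 counts (red). The line is the running median of 500 features, and 7 members past 2-fold are named.

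GCN4 (YEL009C, chromosome V, 138918 to 139763, minus strand) had 1015 wild type and 771 npl3Δ counts. Its count was lower in npl3Δ even before scaling. Centred on the median feature, the log2 ratio was -0.89 (95% interval -1.02 to -0.75). Per kilobase of coding length and 1000000 counts outside the rDNA, its level was 250 in the wild type library and 137 in that of npl3Δ. In wild type this was next to GLN1, ILV6 and ASN1, whose levels were 243, 237 and 206. In npl3Δ the level of ILV6 was also 137, whereas GLN1 and ASN1 were at 64.2 and 69.2. The RNA level does not show the amount of Gcn4 protein, which is set mainly by translation. No TGACTC was found in the 500 bases before its start codon.

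The genes of nitrogen assimilation into glutamate and glutamine had the lowest median of the pathways with -1.18, and their ratios differed widely. GLN1 (YPR035W, chromosome XVI, 642208 to 643320), which encodes glutamine synthetase, had 1296 wild type and 477 npl3Δ counts. The log2 ratio of -1.93 (-2.09 to -1.78), which is 3.81-fold lower relative to the median feature, was the lowest of all members tested. GDH1 (YOR375C, chromosome XV, 1041678 to 1043042), the gene of the NADP-dependent glutamate dehydrogenase, had 836 and 518 counts, a log2 ratio of -1.18 (-1.34 to -1.02). GLT1, which encodes glutamate synthase and so the alternative route to glutamate, had no such low ratio. It had 1037 and 1547 counts and a log2 ratio of 0.09 (-0.03 to 0.20), an interval that held the median feature. The levels per length of GDH1 and GLT1 were 128 and 33.6 in wild type, and 56.9 and 36 in npl3Δ, where they lay closer to each other.

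Asparagine synthetase is encoded by ASN1 and ASN2, whose products have the same activity. ASN1 (YPR145W, chromosome XVI, 822620 to 824338) had 1702 wild type and 794 npl3Δ counts, a log2 ratio of -1.59 (-1.71 to -1.47). ASN2 (YGR124W, chromosome VII, 739944 to 741662) had 1577 and 1950, a log2 ratio of -0.18 (-0.28 to -0.09) that was 0.13 relative to features of like count. The pair had nearly equal counts in wild type, 1.08 for ASN1 per ASN2, and 0.407 in npl3Δ. This quotient does not depend on scaling, and it was 2.65-fold lower in npl3Δ (95% interval 2.38 to 2.96). Both genes hold TGACTCA before the start codon, at 227 bases in ASN1 and 197 bases in ASN2, as printed above. Words of 50 bases that occur elsewhere in the genome make up 2.04% of either gene, so that few reads can have been exchanged between them.

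Arginine was the second pathway with several members past 2-fold. Of its 6 genes with enough counts, 5 lay below the median feature, and the median was -0.75. CPA1 (YOR303W, chromosome XV, 882899 to 884134), a gene of carbamoyl phosphate synthesis for arginine, had 215 and 144 counts, a log2 ratio of -1.07 (-1.38 to -0.76). Its level per length was 36.2 in wild type and 17.5 in npl3Δ.

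ARG1 (YOL058W, chromosome XV, 219211 to 220473), which encodes argininosuccinate synthetase, had 49 wild type and 29 npl3Δ counts. The log2 ratio was -1.24 with a wide interval from -1.96 to -0.55. ARG4, whose product catalyses the next and last step, had 152 and 177 counts and a log2 ratio of -0.27 (-0.59 to 0.05). ARG5,6, which encodes the precursor of 2 mitochondrial enzymes of ornithine synthesis, had 74 counts in either library and a log2 ratio of -0.49. Only ARG8, the acetylornithine aminotransferase gene, lay above the median feature, with 48 and 75 counts and a log2 ratio of 0.15 (-0.39 to 0.71). The mitochondrial ornithine branch therefore contained no gene past 2-fold, whereas CPA1 belongs to carbamoyl phosphate synthesis and ARG1 to the joining of citrulline with aspartate.

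Serine is made from a glycolytic intermediate by 3-phosphoglycerate dehydrogenase (SER3 and SER33), phosphoserine aminotransferase (SER1) and phosphoserine phosphatase (SER2). The pathway was the most divided after that of glutamate and glutamine, with 1.97 between its lowest and highest log2 ratio. SER3 (YER081W, chromosome V, 322686 to 324095) had 155 wild type and 446 npl3Δ counts, a log2 ratio of 1.03 (0.77 to 1.31). SER33 (YIL074C, chromosome IX, 221081 to 222490) had 225 and 264, a log2 ratio of -0.26. SER33 thus had the more counts of the pair in wild type and SER3 in npl3Δ, with 0.689 and 1.69 counts of SER3 per SER33, a change of 2.45-fold (1.89 to 3.19). The later genes were lower, with 472 and 345 counts for SER1, a log2 ratio of -0.94 (-1.15 to -0.74), and 197 and 167 for SER2, a log2 ratio of -0.73 (-1.03 to -0.42).

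SER3 is known for its control by SRG1, a noncoding RNA that is transcribed across the SER3 promoter in rich medium and represses the gene. SRG1 had 144 wild type and 384 npl3Δ counts, a log2 ratio of 0.92 (0.65 to 1.21), so that both RNAs were higher in npl3Δ. The annotated SRG1 (chromosome V, 322212 to 322762) overlaps the start of SER3 by 77 bases on the same strand. How reads of the overlap were assigned is not given in the sources used here, and the part of SRG1 transcripts in the SER3 count was not tested. SER3 was the only member whose coordinates overlap another annotated gene.

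In the lysine pathway, 6 of 7 genes lay below the median feature (5 of 7 below features of like count, where LYS2 was at 0.01), and LYS1 lay far above it. LYS1 (YIR034C, chromosome IX, 419615 to 420736) encodes the saccharopine dehydrogenase that forms lysine in the last step. It had 53 wild type and 160 npl3Δ counts, a log2 ratio of 1.10 (0.65 to 1.58), the highest of all members. LYS9, whose product forms saccharopine in the step before, had 300 and 336 counts and a log2 ratio of -0.33 (-0.55 to -0.10). The lowest was LYS4, the homoaconitase gene, with 267 and 256 counts and a log2 ratio of -0.55 (-0.80 to -0.30). LYS12, the homoisocitrate dehydrogenase gene, had 471 and 468 counts and a log2 ratio of -0.50 (-0.69 to -0.31). LYS2, which encodes aminoadipate reductase and is deleted in some laboratory strains, had 511 and 690 counts, so that it was expressed in both libraries, with a log2 ratio of -0.06 (-0.22 to 0.11). Levels per length of LYS1 were 9.84 and 21.4, the lowest of the pathway in wild type and above that of LYS4 (18.4) in npl3Δ.

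Homocitrate synthase, the entry enzyme of the lysine pathway, is encoded by LYS20 and LYS21. LYS20 had 968 and 1136 counts, and LYS21 had 798 and 992. Their quotient was 1.21 for wild type against 1.15 for npl3Δ. The interval of its 0.944-fold change ran from 0.83 to 1.07 and held no change. Of the 50-base words, 37.8% of LYS20 and 36.7% of LYS21 occur elsewhere in the genome, so that the division of reads between these genes is uncertain.

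The other pairs of isozyme genes were LEU4 and LEU9 for isopropylmalate synthase, BAT1 and BAT2 for the mitochondrial and the cytosolic branched-chain aminotransferase, and ARO3 and ARO4 for the entry enzymes of aromatic synthesis. LEU4 had 306 and 449 counts and LEU9 had 301 and 337, and the quotient changed by 1.31-fold (1.05 to 1.63). BAT1 had 699 and 728 counts and BAT2 had 418 and 414, a change of the quotient by 1.05-fold (0.883 to 1.25). ARO3 had 273 and 378 counts and ARO4 had 652 and 945, a change by 0.955-fold (0.791 to 1.15). Among the 6 pairs compared, the quotient thus changed by more than 2-fold for ASN1 and ASN2 and for SER3 and SER33, and the intervals of LYS20 and LYS21, BAT1 and BAT2, and ARO3 and ARO4 held no change.

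**Figure D3:**
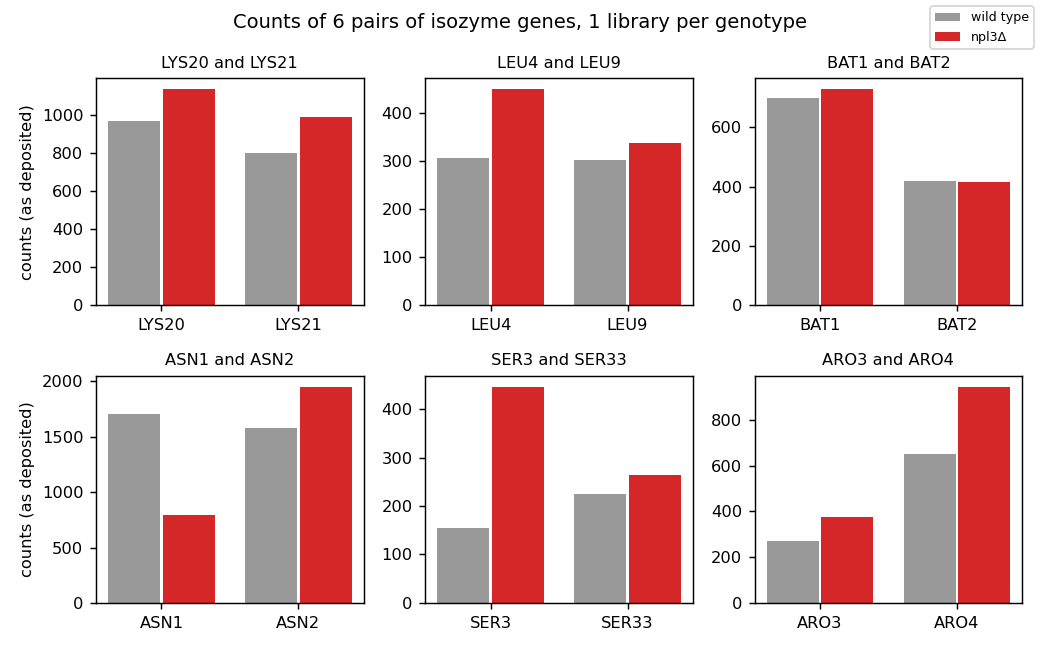
Counts as deposited (vertical axes, from 0) of 6 pairs of isozyme genes in wild type (grey) and npl3Δ (red), 1 library each; a gene at the median of all features would be 1.40-fold higher in npl3Δ. ASN1 is below its wild type count while ASN2 is above it, and SER3 passes SER33.

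Leucine and the other branched-chain amino acids share enzymes, and their genes stayed close to the median feature, with medians of 0.06 for leucine and -0.24 for isoleucine and valine. No gene of either pathway passed 2-fold. LEU1, the isopropylmalate isomerase gene, had 243 and 459 counts and the highest ratio of both pathways, a log2 ratio of 0.43 (0.20 to 0.66). LEU9 was the lowest of the leucine genes, with a log2 ratio of -0.33 (-0.55 to -0.10). LEU2, whose product follows Leu1 in the pathway and which is not a member, had 0 counts in both libraries, which allows up to 3 counts in each, as did URA3 and MET17. HIS3 had 88 and 116 counts. The strain list of the study gives deletion alleles of LEU2, URA3, HIS3 and MET17 (there as MET15) for a wild type strain. Whether that strain was sequenced is not given in the sources used here.

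Acetolactate synthase is formed by the catalytic subunit Ilv2 and the regulatory subunit Ilv6, and the genes of these subunits had ratios on opposite sides of the median feature. ILV2 had 686 and 1218 counts, a log2 ratio of 0.34 (0.20 to 0.48), the highest of its pathway. ILV6 had 1058 and 853, a log2 ratio of -0.80 (-0.93 to -0.67), the lowest. In levels per length, ILV6 was at 237 and ILV2 at 69.3 in wild type, and 137 and 88.4 in npl3Δ, so the excess of the regulatory subunit gene was smaller in npl3Δ. ILV5, the acetohydroxyacid reductoisomerase gene, had the highest level per length of all members in both libraries, 377 in wild type and 414 in npl3Δ, and a log2 ratio of 0.12 (0.04 to 0.20). ILV1, ILV3, BAT1 and BAT2 had log2 ratios from -0.50 to -0.16.

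The 8 genes of aromatic amino acid synthesis had a median of -0.06 and the narrowest range of the pathways with more than 5 genes, from -0.45 to 0.35. None passed 2-fold. TRP2, which encodes a subunit of anthranilate synthase and so the entry into the tryptophan branch, had 410 and 420 counts and a log2 ratio of -0.45 (-0.65 to -0.25). TRP5, the tryptophan synthase gene at the end of this branch, had 550 and 983 and a log2 ratio of 0.35 (0.20 to 0.50). The common chorismate pathway lay between them, with ARO1 at -0.01, ARO3 at -0.02, ARO4 at 0.05 and ARO2, the chorismate synthase gene, at -0.37. TRP3 and TRP4 had -0.10 and -0.16, with intervals that held 0.

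Threonine is made from aspartate through Hom3, Hom2 and Hom6, which also serve methionine, and then through Thr1 and Thr4. The shared steps had lower ratios than the steps of threonine alone. HOM3, the aspartate kinase gene, had 268 and 227 counts and a log2 ratio of -0.73 (-0.99 to -0.47). HOM6 and HOM2 had log2 ratios of -0.54 (-0.70 to -0.38) and -0.35 (-0.52 to -0.18). THR1, the homoserine kinase gene, had 560 and 803 counts and a log2 ratio of 0.03 (-0.13 to 0.19), and THR4, the threonine synthase gene, had -0.04 (-0.18 to 0.10). The intervals of the 3 HOM genes lay below 0. None of them reached that of THR1, and only that of HOM2 met that of THR4, at its edge of -0.18.

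Proline synthesis was represented by its entry and its last gene. PRO1, the glutamate kinase gene, had 186 and 281 counts and a log2 ratio of 0.11 (-0.17 to 0.38). PRO3, the pyrroline-5-carboxylate reductase gene, had 617 and 483 and a log2 ratio of -0.84 (-1.02 to -0.67). The order of the pathways by median was therefore glutamate and glutamine (-1.18), asparagine (-0.89), arginine (-0.75), serine (-0.49), proline (-0.37), threonine (-0.35), lysine (-0.26), isoleucine and valine (-0.24), aromatic (-0.06) and leucine (0.06). With 2 to 8 genes each, and with 2.02 between the lowest and highest gene of glutamate and glutamine, neighbours in this order do not differ beyond the spread of their genes. Among features with at least 100 counts, which leaves out ARG1, arginine and serine had the same median of -0.46. In no pathway did all genes pass 2-fold. Asparagine was the only pathway in which the intervals of all genes lay on the same side of the median feature, below it, although ASN2 lay above features of like count.

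The core TGACTC was found, on either strand of the window from 250 bases before to 50 after the start codon, in 25 of the 49 members, which is 51%, against 7.96% of 6020 such windows of protein-coding genes. The full site TGACTCA, which contains the core, was in 17 members, 34.7% against 2.72%. Both asparagine genes, 3 of the 7 arginine genes and 1 of the 3 leucine genes held the full site, and no glutamate and glutamine gene held the core. Of the 2 members past 2-fold higher, LYS1 held the full site and SER3 no core. The median log2 ratio was -0.24 over the 25 members with the core, from -1.59 to 1.10, and -0.33 over the 23 tested members without it, from -1.93 to 1.03. In this window the lists with and without the core thus had similar medians and ranges. The window decides which of the lower members hold the core. In the 500 bases before the start codon it was in 35 members (71.4% against 12.6% of all windows), among them 6 of the 6 lower members in place of 1. The 34 tested members with the core then had a median of -0.30, from -1.93 to 1.10. The 14 without it had -0.22, from -0.89 to 1.03, so that the lower ends of the ranges differed. A match of letters is no proof of binding.

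Motifs of pathway regulators were searched in the same window of 250 bases before to 50 after the start codon. CGGNNCCG, the centre of the Leu3 site, was found in 4 members against 0.897% of all windows, and 3 of these belonged to the 10 leucine, isoleucine and valine genes. These were LEU1, ILV3 and BAT1, with log2 ratios of 0.43, -0.16 and -0.43. TCCNNNGGA, a shortened form of the Lys14 site, was in 5 members against 3.39% of all windows, among them LYS1, LYS9 and LYS12, with log2 ratios of 1.10, -0.33 and -0.50. GATAAG, the core of GATA factor sites, was in 14 members or 28.6%, against 14.6% of all windows. Of the 6 members past 2-fold lower, 3 held it. GLN1 and GDH1 were not among these, and no glutamate and glutamine gene held it. This count also depends on the window. In the 500 bases before the start codon, GATAAG was in 20 members (40.8% against 22.7% of all windows) and in 5 of the lower members. GDH1 and GLT1 held it there, and GLN1 did not.

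The other genes of these pathways were taken from a list of 16 with LEU2, TRP1, PRO2 and other enzymes, of which 15 had enough counts. None passed 2-fold in either direction, and their median was -0.15, with the lowest value for PHA2 (-0.73), the prephenate dehydratase gene, and the highest for LYS5 (0.64), whose product activates Lys2. Among the 14 genes found of 15 that control Gcn4 synthesis or stability, none passed 2-fold either, with a median of -0.05. GCN2, the gene of the kinase that senses uncharged tRNA, had 314 and 289 counts and a log2 ratio of -0.61 (-0.84 to -0.37), near the lowest of the list, which was -0.63 for YIH1. Of the 15 pathway regulators with enough counts none passed 2-fold, and their median was 0.07. They ranged from -0.55 for GAT1, a GATA factor gene, to 0.82 for ARG82. LEU3 had 169 and 291 counts and LYS14 149 and 189. The GATA repressor gene DAL80, with 1 and 8 counts, was below the minimum.

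**Figure D4:**
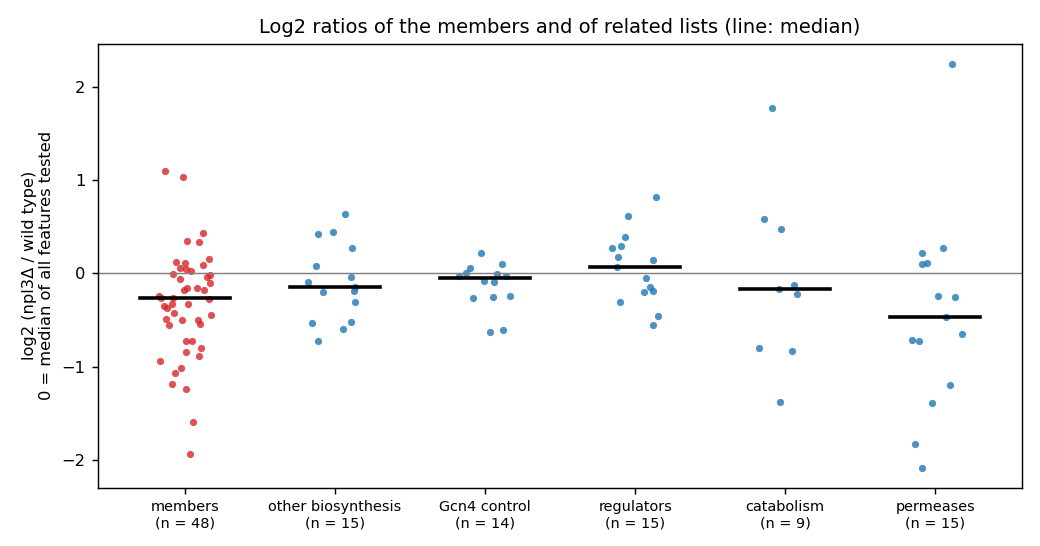
Log2 ratios (vertical axis, 0 is the median feature) of the 48 members with at least 10 counts and of the genes of 5 related lists with at least 10 counts, each point 1 gene and each line the median of its list. The medians run from -0.47 for permeases to 0.07 for regulators, with -0.26 for the members, and the genes of Gcn4 control lie between -0.63 and 0.22.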

How the data were processed

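The 2 libraries were compared, 1 per genotype, grouped by the genotype in the sample labels. The deposited values are raw counts per feature. According to the methods and the submitters' processing notes, the authors mapped reads of a stranded library with Hisat2 to sacCer3 (R64) and counted them with featureCounts, without normalization. Versions, the annotation and the handling of reads with several positions are not given in the sources used here. The deposited coverage of the 35S rRNA was not used.

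Symbols, coordinates and coding lengths came from the RefSeq annotation of R64, to which 6169 of 7127 features matched. The 22 rRNA features and 2 features inside the 35S rRNA were left out, and 0 columns of values stayed unmapped. Log2 ratios used a pseudocount of 0.5 and were centred on the median of the 6118 features with at least 10 counts. Levels are counts per kilobase of coding length and 1000000 counts outside the rDNA. Because these scales differ by only 0.01 on the log2 scale, levels and ratios can be set side by side. Quotients within pairs carry exact conditional intervals. Counts up to 3 were taken as the floor. The median was preferred to the library total because 1 gene holds a large, unequal share of the counts.

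Members, lists, pairs and motifs were chosen with earlier results of these data known. All members enter the counts and medians, but 1 of them is not named here or drawn by name. Of the others, full values are given for GCN4, members past 2-fold, the highest and lowest of each pathway and both genes of each pair. SRG1, STE2, STE3, GCN2 and the subunits ILV2 and ILV6 were singled out after their values were seen. Motifs were searched from 250 bases before to 50 after the start codon, and the wider window of 500 bases was chosen after the data were seen. The intervals were tested on simulated counts that varied by counting error only, so differences between cultures or libraries were not covered. Calculations ran under Python 3.11.15 with pandas 2.3.3, scipy 1.17.1 and numpy 2.4.6, and figures were drawn with matplotlib 3.10.9.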

Additional observations from a re-analysis of the deposited data

How the results depend on the processing

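No paired analysis was possible because there was 1 library per genotype, and for the same reason no replicate could be left out. Medians of pathways are differences from the median of all features. By this definition they cannot move with the library size, which is therefore no check of them. Read against the library size without ATG26 and BDF1, they would be higher by 0.25, like the ratios of the single genes. With ATG26 and BDF1 left out of the library size, all ratios were higher by 0.25, the median of the members became -0.01, GCN4 was at -0.63, 2 members were lower by 2-fold, and the level of ILV5 in wild type became 493. Compared with 500 features of like count, the median was -0.06 for lysine and -0.61 for asparagine. A limit of 1.5-fold gave 12 lower members. No called value changed its direction under any alternative tried, but the shifts were too small to reverse a ratio past 2-fold. The other scaling and pseudocounts of 0 and 5 moved the main values little. The minimum counts did so too, except for the arginine median. It was -0.46 among features with at least 100 counts, where ARG1 drops out, and -0.96 without a minimum, where ARG3 enters. Under these settings 4 to 6 members were lower and 2 higher. The full site TGACTCA was in 17 members, against 25 for TGACTC. With a window of 500 bases before the start codon, chosen after seeing the data, TGACTC was in 35 members, and the number of lower members that hold it went from 1 to 6. Counts under 100 in each library, as for ARG1 and ARG8, give wide counting intervals.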

Other observations

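Of 15 permease genes, 4 were at least 2-fold lower in npl3Δ, where 4.56% of all features tested were lower, and 1 was higher, where 7.78% were higher. Among the 11 with at least 100 counts, 1 was lower, AGP1, and 0 were higher, beside 2.99% and 4.09% of such features. The ratios of the 15 differed widely, and their median was -0.47, or -0.22 over those with at least 100 counts. AGP1, the gene of a permease of broad range, had 236 wild type and 78 npl3Δ counts, a log2 ratio of -2.08 (95% interval -2.47 to -1.71). GAP1, the general amino acid permease gene, had 60 and 32 counts, a log2 ratio of -1.39 (-2.06 to -0.75), and MUP3, a methionine permease gene, had 64 and 25, a log2 ratio of -1.83 (-2.57 to -1.16). PUT4, a proline permease gene, had only 15 and 9 counts, and its interval, -2.60 to 0.06, held 0. ALP1, a basic amino acid permease gene, was the exception with 8 and 56 counts, a log2 ratio of 2.24 (1.24 to 3.60).

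Among 9 genes of amino acid catabolism, 1 was at least 2-fold lower and 1 higher, beside 4.56% and 7.78% of all features tested. Among the 6 with at least 100 counts, 1 was lower and 0 were higher, beside 2.99% and 4.09% of such features. The lower gene was CAR1, the arginase gene, with 562 and 303 counts and a log2 ratio of -1.38 (-1.59 to -1.18). CAR2, the ornithine transaminase gene, had 301 and 242 and a log2 ratio of -0.80. For proline, the breakdown genes PUT1, with 9 and 45 counts, and PUT2, with 184 and 361, had log2 ratios of 1.77 (0.78 to 3.05) and 0.48. Of the synthetic genes, PRO3 was at -0.84, whereas PRO1 was at 0.11 (-0.17 to 0.38) and PRO2 at -0.15 (-0.34 to 0.04).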
